A study of Mus musculus with 6 samples.

Results

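This account covers 10 mouse genes for enzymes that alter foreign chemicals, many of them known from the club cells of the airway. They are the cytochrome P450 genes Cyp2f2, Cyp2a5, Cyp2b10, Cyp4b1 and Cyp2s1, the reductase genes Por and Cbr2, the flavin monooxygenase gene Fmo2, the aldehyde dehydrogenase gene Aldh1a1 and the sulfotransferase gene Sult1d1. Members were chosen by symbol, with earlier results of these data known, and 10 of 10 were found among the 56980 genes of the deposited table, each once. Gene expression was measured by RNA sequencing of whole lung from NSG mice, an immunodeficient strain without mature T, B and natural killer cells, 5 weeks after human breast cancer cells were placed in the fourth mammary fat pad. In the Ctrl group (n = 3) the mice carried MDA-MB-231 cells, a line derived from triple-negative breast cancer, and in the DPP3_KO group (n = 3) they carried MDA-MB-231 cells with DPP3, the gene of dipeptidyl peptidase 3, knocked out. The deletion was in the human tumour cells and not in the host, and all 6 libraries came from grafted mice, so no lung without a graft is compared here. The sources used here do not say how the knockout line was made, whether it is 1 clone, or how old the mice were.

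Club cells are secretory cells of the conducting airways, and in the mouse they are a main site of P450 activity in the lung. Microsomal P450 enzymes insert oxygen into lipophilic compounds with electrons that Por, the NADPH-P450 reductase, passes to them, and some products, such as the epoxide of naphthalene, injure the cell that made them. Flavin monooxygenases, carbonyl reductases and aldehyde dehydrogenases oxidize or reduce other groups, and sulfotransferases attach a sulfate that helps excretion.

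Promoter sequences were read for the genes on which the comparison turns: Sult1d1 and Cyp2a5, which rose, Cyp2b10, which lies in the same P450 gene cluster as Cyp2a5 without passing the test, and Cyp2f2, the most abundant P450 transcript of the set. Each runs 5′ to 3′ on the gene's own strand from 250 bases before to 50 bases after the RefSeq start, in build GRCm38.p6. Capitals mark every match, on either strand, to 6 motifs. The TATA box was searched as TATAAA and the C/EBP motif as TTGCNNAA. The letters TGTTTAC stood for FOXA factors and CAAGTG for NKX2-1. The core of the antioxidant response element was TGACNNNGC. The core of the aryl hydrocarbon receptor site was GCGTG. No 2 matches overlapped in the windows printed.
Sult1d1, chr5:87568957-87569256, minus strand: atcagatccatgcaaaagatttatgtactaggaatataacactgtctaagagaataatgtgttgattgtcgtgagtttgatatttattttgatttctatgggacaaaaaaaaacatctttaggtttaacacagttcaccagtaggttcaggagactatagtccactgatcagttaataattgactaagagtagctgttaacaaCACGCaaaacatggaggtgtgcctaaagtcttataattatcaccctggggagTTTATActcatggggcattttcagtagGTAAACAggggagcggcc
Cyp2a5, chr7:26835089-26835388, plus strand: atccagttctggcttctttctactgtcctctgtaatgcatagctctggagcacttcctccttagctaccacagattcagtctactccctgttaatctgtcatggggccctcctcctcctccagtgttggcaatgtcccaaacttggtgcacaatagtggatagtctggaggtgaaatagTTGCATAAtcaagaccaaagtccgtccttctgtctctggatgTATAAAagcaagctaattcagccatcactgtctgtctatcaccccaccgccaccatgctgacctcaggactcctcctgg
Cyp2b10, chr7:25897408-25897707, plus strand: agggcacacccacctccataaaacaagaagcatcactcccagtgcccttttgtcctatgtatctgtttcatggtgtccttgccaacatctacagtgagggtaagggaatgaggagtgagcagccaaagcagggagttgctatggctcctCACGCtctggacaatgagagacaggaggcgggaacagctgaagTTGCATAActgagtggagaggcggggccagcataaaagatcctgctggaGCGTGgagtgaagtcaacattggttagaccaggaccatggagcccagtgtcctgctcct
Cyp2f2, chr7:27119705-27120004, plus strand: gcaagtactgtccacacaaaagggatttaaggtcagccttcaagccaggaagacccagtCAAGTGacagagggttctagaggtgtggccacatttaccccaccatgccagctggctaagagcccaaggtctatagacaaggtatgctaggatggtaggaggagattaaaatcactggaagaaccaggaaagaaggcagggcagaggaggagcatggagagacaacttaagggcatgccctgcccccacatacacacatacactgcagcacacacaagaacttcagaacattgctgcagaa

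The Cyp2a5 and Cyp2b10 promoters hold the same 8 letters, TTGCATAA, a match to the C/EBP motif, at bases -71 to -64 and -58 to -51 from the start. Cyp2a5 also has a TATA box match at -29 to -24. The TATA box letters of Sult1d1 lie in reverse orientation and after the start, at 6 to 11. In Sult1d1 a FOXA match in reverse orientation lies at 33 to 39 after the start, and in Cyp2f2 the only match is the NKX2-1 letters at -191 to -186. The promoters used were those on each gene's own chromosome. They were present in the RefSeq table for all 10 genes, 12 in all, since Fmo2 and Aldh1a1 have 2 starts each. A C/EBP match was found in 5 of the 12 promoters, of 4 genes (Aldh1a1, Cyp2a5, Cyp2b10 and Fmo2), against 10.8% of all 32851 promoters of the same length and 9.09% of the 14287 promoters of tested genes. The FOXA letters were in 2 of 12, of Fmo2 and Sult1d1 (3.65% of all promoters and 2.73% of those of tested genes). The TATA box letters, on either strand, were in 2 of 12, of Cyp2a5 and Sult1d1 (13.6% and 7.83%), and the NKX2-1 letters in 2 of 12, of Aldh1a1 and Cyp2f2 (13.6% and 11.5%). The aryl hydrocarbon receptor core was in 3 of 12, of Cyp2b10, Por and Sult1d1 (32.4% and 47.9%). The antioxidant response element core, in 12.4% and 14.3%, was not among the letters of these windows. A match of letters is a description and not a measured binding site.

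Values are TPM as the authors deposited them, a level per transcript length scaled to 1 fixed total in every library. Depth cannot be read from such values, and no counting interval is given. From 22904 to 24477 genes per library had a value above 0. The test took in the 15650 genes whose mean reached 1 TPM, all 10 members among them. They were compared with limma on log2(TPM + 1), and a gene is called changed at a Benjamini-Hochberg adjusted p under 0.05. The club cell secretoglobin Scgb1a1 held 83264 ± 15832 TPM (SD, n = 3) in Ctrl and 261113 ± 38365 in DPP3_KO, and within a fixed total this leaves less TPM for all other genes. The median log2 change over the tested genes was -0.60 as deposited and -0.33 with TPM rescaled without Scgb1a1. The members' results are therefore given a second time from values divided by median-of-ratios size factors, a step called rescaling here, which sets a gene against the typical gene and brings that median to -0.03. Replicates are numbered in the labels without a statement that each is a separate mouse, so the p-values rest on a spread that may be technical. In bulk tissue, fewer cells of a type and less RNA per cell cannot be told apart.

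Of the 10 enzyme transcripts, Sult1d1 and Cyp2a5 rose in DPP3_KO lungs, 0 fell, and 8 did not pass the test as deposited. Over all tested genes 35.4% were called, 1.38% higher and 34.0% lower. After rescaling the same 2 genes were called, where 2.78% of all tested genes were called, 1.9% higher and 0.882% lower. After quantile normalization Sult1d1 was the 1 member called, against 2.99% of tested genes (2.09% higher, 0.901% lower). With each library's trend in gene length also removed from the rescaled values it was again Sult1d1, against 1.77% (1.19% higher, 0.581% lower). The median log2 change of the 10 members was 0.27 as deposited and 0.92 after rescaling. All 10 members lay above the median of all genes on both scales, which move all genes nearly alike. After quantile normalization 8 of 10 did (median of the members 0.45), and with the length trend removed 9 of 10 (0.85). As deposited, 8 of 10 estimates were above 0, where 13.8% of all tested genes were. After rescaling 10 of 10 were, where 47.7% of all tested genes were.

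**Figure D1:**
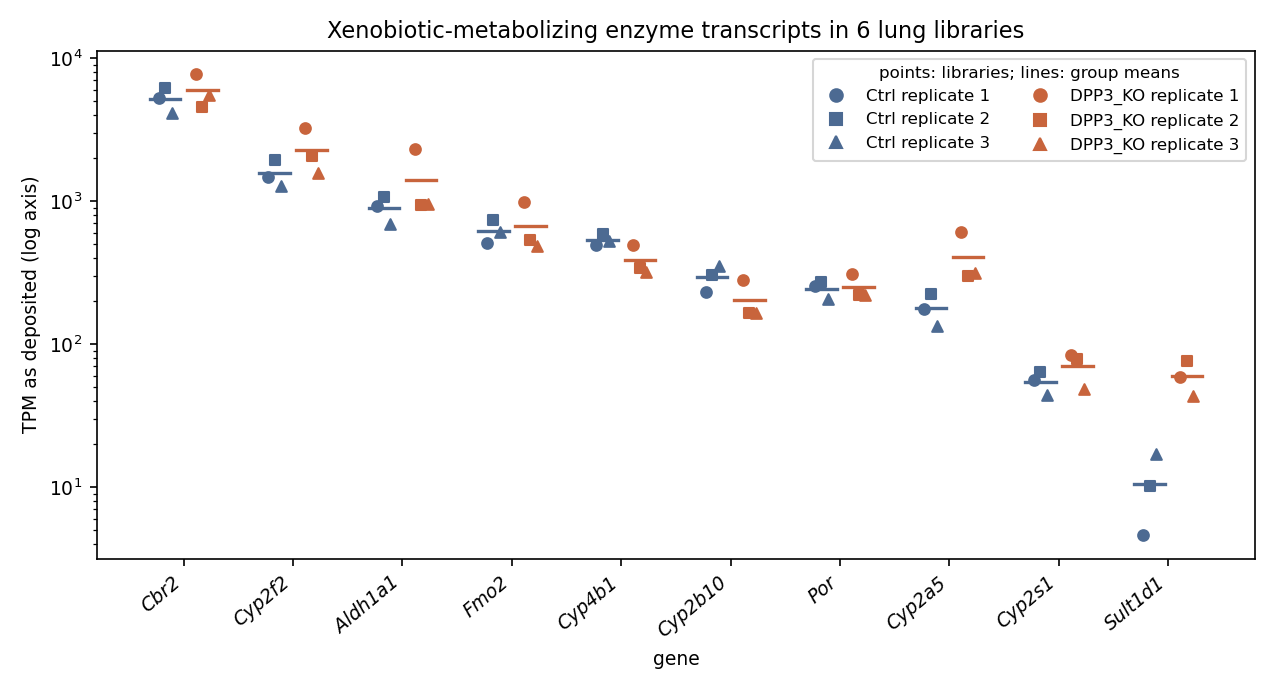
TPM of the 10 enzyme genes in each library, on a log axis, ordered by the Ctrl mean; points are libraries and lines are group means. The groups are separate for Cyp2a5 and Sult1d1, and the DPP3_KO replicate 1 point is the highest of all libraries for 7 genes.

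Cbr2 was the most abundant transcript of the set and Sult1d1 the least in every library. In Ctrl the order of mean TPM was Cbr2, Cyp2f2, Aldh1a1, Fmo2, Cyp4b1, Cyp2b10, Por, Cyp2a5, Cyp2s1 and Sult1d1. The ranges of Aldh1a1 and Fmo2, of Fmo2 and Cyp4b1, of Cyp2b10 and Por, and of Por and Cyp2a5 overlapped among Ctrl libraries. Within single Ctrl libraries, of these pairs only Cyp2b10 and Por changed places. Cyp2a5 held place 8 in each Ctrl library and places 5, 6 and 6 in the DPP3_KO libraries, while Cyp2b10 stood at 7, 6 and 6 and then at 8 in all 3. The summed level of the 10 genes was 9369, 11439 and 8011 TPM in Ctrl and 16192, 9302 and 9698 TPM in DPP3_KO, and Cbr2 made up 54.0% of it in Ctrl. The sums overlapped between groups (two-sided exact permutation p = 0.6, where 3 against 3 cannot go below 0.1). After rescaling they were 7507, 8493 and 6781 in Ctrl and 20168, 10307 and 13955 in DPP3_KO, without overlap (exact permutation p = 0.1). As deposited, the difference of the means was 2125 TPM, and -106 TPM without DPP3_KO replicate 1.

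Sult1d1 (ENSMUSG00000029273), which encodes a sulfotransferase for catecholamines and other amines in the mouse, showed the largest change of the set. It stood at 4.58, 10.1 and 17.0 TPM in Ctrl replicates 1 to 3 and at 58.7, 76.4 and 43.1 TPM in DPP3_KO. Every DPP3_KO library lay above every Ctrl library, and Ctrl replicate 1 was the lowest. Among all tested genes 2.73% had non-overlapping groups with DPP3_KO higher, and 51.1% with DPP3_KO lower. The mean rose 5.62-fold, from 10.6 ± 6.22 to 59.4 ± 16.7 TPM (SD, n = 3), a log2 change of 2.50 ± 0.43 SE (limma adjusted p = 0.0155). After rescaling the change was 3.12 (limma adjusted p = 0.0197). The call was lost without Ctrl replicate 1 (log2 change 2.06, limma adjusted p = 0.0583) and without Ctrl replicate 2 (2.55, limma adjusted p = 0.0838), fits in which the calls over all genes dropped from 5537 to 19 and to 75.

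Cyp2a5 (ENSMUSG00000005547), the mouse coumarin hydroxylase that also acts on nicotine and is made in liver and nasal tissue besides lung, was the other gene that rose. Its levels were 178, 223 and 134 TPM in Ctrl and 613, 298 and 315 TPM in DPP3_KO. The groups did not overlap, and DPP3_KO replicate 1 stood well above the other 5 libraries. The mean rose 2.29-fold, from 178 ± 44.2 to 409 ± 177 TPM, a log2 change of 1.14 ± 0.33 SE (limma adjusted p = 0.0347), and 1.80 after rescaling (limma adjusted p = 0.0465). The call did not hold after quantile normalization (1.54, limma adjusted p = 0.0779), with the trend in gene length also removed (1.70, limma adjusted p = 0.0574), with TPM rescaled without Scgb1a1 (1.45, limma adjusted p = 0.0593) or without a filter on low genes (limma adjusted p = 0.0784). Leaving out 1 library at a time ended it in 5 of 6 fits, with log2 changes from 0.81, without DPP3_KO replicate 1, to 1.33, and it held without DPP3_KO replicate 2 (limma adjusted p = 0.0394).

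Reads of Cyp2a5 can be shared with a close copy: 12.1% of the 100-base windows of its annotated transcripts also occur in transcripts of Cyp2a4 or the pseudogene Cyp2a21-ps (GENCODE M21). Cyp2a4 was listed at 0.29 to 1.41 TPM in these libraries, so Cyp2a5 took nearly all of what was assigned to the pair. Windows shared with another gene made up 5.37% for Cbr2, 3.40% for Cyp4b1 and 0.02% for Aldh1a1, and 0 for the other 6 members.

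Since Cyp2a5 is also a liver gene, a list of 8 hepatocyte genes is set beside it. Its summed level was 61.1, 19.6 and 21.3 TPM in Ctrl and 141, 5.96 and 5.08 TPM in DPP3_KO, and 0 of the 6 members tested were called. Albumin (Alb) stood at 65.2 TPM in DPP3_KO replicate 1 and at 0.43 and 1.41 TPM in replicates 2 and 3, below its Ctrl levels of 27.3, 5.24 and 9.39 TPM. Cyp2a5 stood at 298 and 315 TPM in those last 2 libraries and at up to 223 TPM in Ctrl. No gene of the hepatocyte list was at 0 in all libraries. A list of 6 adipocyte genes also summed highest in DPP3_KO replicate 1, at 77.0 TPM against 10.4 to 24.7 TPM in the other 5 libraries. Of its 4 tested genes 1 (Cidea) was called higher, where 1.38% of all tested genes were, and Lep was near 0 throughout. Cidea stood at 1.53, 2.20 and 2.36 TPM in Ctrl and 5.37, 6.57 and 6.09 TPM in DPP3_KO, so its highest library was not DPP3_KO replicate 1. The part of hepatocytes and adipocytes in the high values of DPP3_KO replicate 1 was not tested.

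**Figure D2:**
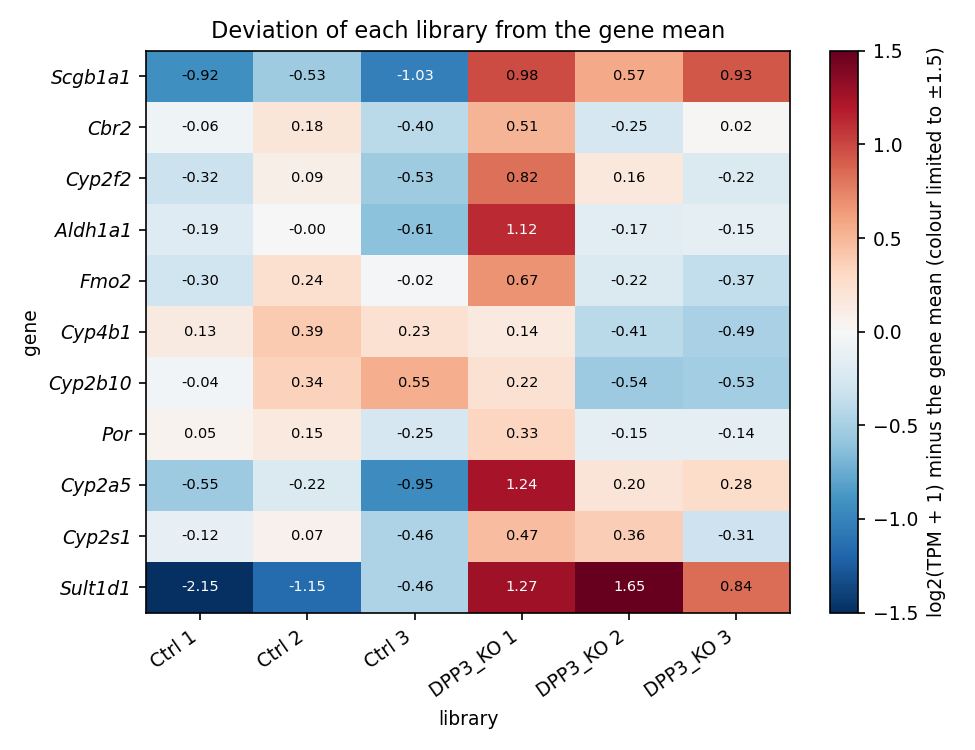
log2(TPM + 1) of Scgb1a1 and the 10 enzyme genes in each library, minus the mean of that gene over the 6 libraries. Sult1d1 is below its mean in all 3 Ctrl and above it in all 3 DPP3_KO libraries, as are Scgb1a1 and Cyp2a5. Cyp4b1, Cyp2b10, Por, Fmo2 and Aldh1a1 are below their means in both DPP3_KO replicates 2 and 3.

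The P450 genes other than Cyp2a5 did not pass, and their estimates went in both directions. Cyp2f2 (ENSMUSG00000052974), the club cell P450 that activates naphthalene, stood at 1477, 1959 and 1275 TPM in Ctrl and 3260, 2056 and 1582 TPM in DPP3_KO. Its highest library was DPP3_KO replicate 1, and DPP3_KO replicate 3 lay inside the Ctrl range. The log2 change was 0.51 ± 0.31 SE (limma adjusted p = 0.217) as deposited and 1.17 (limma adjusted p = 0.0918) after rescaling. On that scale the libraries no longer overlapped, at 1183, 1454 and 1079 in Ctrl and 4061, 2278 and 2277 in DPP3_KO. Such separation, with DPP3_KO higher, held for 8 of 10 members after the scaling (all except Cyp2b10 and Cyp4b1) and for 14.6% of all tested genes, with 15.4% separated the other way. Cyp2s1, an epithelial P450 found mainly outside the liver, had 55.7, 63.6 and 43.8 TPM in Ctrl and 84.3, 78.4 and 48.7 TPM in DPP3_KO, with DPP3_KO replicate 3 inside the Ctrl range. Its change was 0.35 ± 0.26 SE as deposited (limma adjusted p = 0.310) and 0.99 after rescaling (limma adjusted p = 0.0560).

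Cyp2b10 and Cyp4b1 were the members with estimates below 0 as deposited. Cyp2b10, in liver the classic phenobarbital-inducible P450, stood at 232, 304 and 350 TPM in Ctrl and 280, 164 and 166 TPM in DPP3_KO. Only DPP3_KO replicate 1 reached into the Ctrl range. Cyp4b1, a lung P450 that activates the furan ipomeanol, stood at 493, 591 and 527 TPM in Ctrl and 497, 339 and 320 TPM in DPP3_KO, again with only replicate 1 inside the Ctrl range. The log2 changes were -0.56 ± 0.27 SE (limma adjusted p = 0.131) and -0.50 ± 0.22 SE (limma adjusted p = 0.102) as deposited. After rescaling they were above 0, at 0.09 and 0.16 (limma adjusted p = 0.880 and 0.721), and after quantile normalization below it, at -0.15 and -0.14, so neither has a direction that holds across scalings. Without DPP3_KO replicate 1 both were called lower as deposited, at -0.82 and -0.70, and after rescaling they then stood at -0.15 and -0.03. With no library left out, 34.0% of all tested genes were called lower as deposited. The number of all genes called without DPP3_KO replicate 1 is given in the closing section.

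Por (ENSMUSG00000005514), the electron donor of the microsomal P450 enzymes, had near-equal means in the 2 groups as deposited. Its levels were 254, 272 and 206 TPM in Ctrl and 307, 220 and 222 TPM in DPP3_KO, which overlap, and the log2 change was 0.03 ± 0.21 SE (limma adjusted p = 0.924), or 0.68 (limma adjusted p = 0.130) after rescaling. Por varied least among the members in DPP3_KO (coefficient of variation 19.8%) and Cyp4b1 varied least in Ctrl (9.28%).

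The other oxidizing and reducing enzymes did not pass on either scale. Cbr2, a carbonyl reductase that is abundant in rodent lung, stood at 5237, 6219 and 4149 TPM in Ctrl and 7792, 4591 and 5557 TPM in DPP3_KO. Fmo2, the main flavin monooxygenase of mouse lung, stood at 507, 736 and 613 TPM in Ctrl and 992, 535 and 483 TPM in DPP3_KO. Aldh1a1, which oxidizes retinaldehyde to retinoic acid and clears other aldehydes, stood at 930, 1063 and 695 TPM in Ctrl and 2309, 944 and 960 TPM in DPP3_KO. In each of the 3 genes DPP3_KO replicate 1 was the highest library, and the other 2 DPP3_KO libraries lay within or just below the Ctrl range. The log2 changes were 0.19, 0.05 and 0.54 as deposited (limma adjusted p = 0.598, 0.893 and 0.280), and 0.85, 0.71 and 1.19 after rescaling (limma adjusted p = 0.186, 0.234 and 0.141). Without DPP3_KO replicate 1 the deposited changes of Cbr2 and Fmo2 were -0.02 and -0.27, and that of Aldh1a1 was 0.11.

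**Figure D3:**
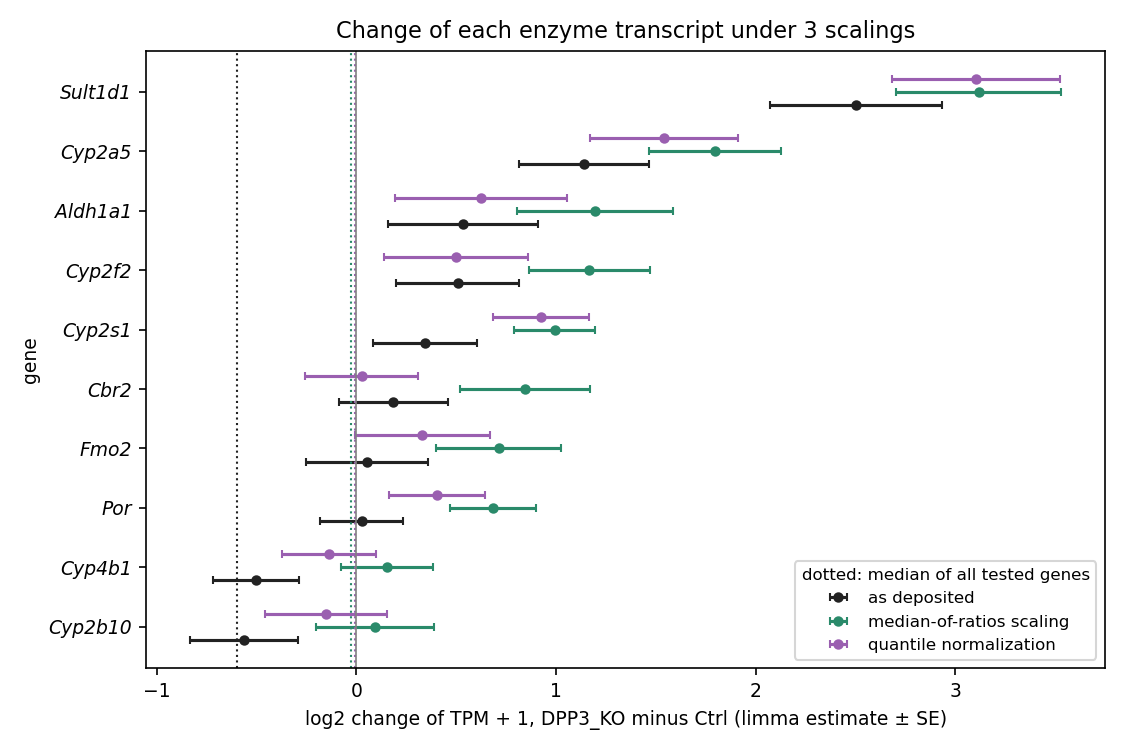
Fitted log2 change (DPP3_KO minus Ctrl, limma estimate ± SE) of each gene on the deposited, rescaled and quantile-normalized values; dotted lines are the median of all tested genes on each scale. Sult1d1 and Cyp2a5 lie farthest to the right on all 3 scales, and the signs of Cyp4b1 and Cyp2b10 depend on the scale.

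A ratio of 2 transcripts within a library does not change when all TPM of the library are multiplied by 1 factor. Each enzyme was therefore also set against Scgb1a1, the leading club cell transcript. The log2 ratios were taken with 1 TPM added to both transcripts, which matters most for low genes such as Sult1d1. Quantile normalization, which is not a single factor, can change such ratios. Per 1000 TPM of Scgb1a1 there were 19.2, 19.3 and 17.8 TPM of Cyp2f2 in Ctrl and 11.3, 9.47 and 5.68 TPM in DPP3_KO. The Ctrl libraries lay close together for this ratio, and all 3 DPP3_KO libraries lay below them. The mean log2 ratio of Cyp2f2 to Scgb1a1 was lower by -1.15 in DPP3_KO, and those of Cbr2, Cyp4b1 and Cyp2b10 by -1.47, -2.16 and -2.22. For 8 of 10 members the DPP3_KO ratios lay below all Ctrl ratios (exact permutation p = 0.1 each, the smallest 3 against 3 can give, and 0.125 adjusted over the 10 ratios). Over all genes tested 94.6% were lower in this way and 0.0192% higher, so the separation of the 8 members is near the background.

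The exceptions were Cyp2a5 and Sult1d1. Cyp2a5 stood at 2.31, 2.20 and 1.88 TPM per 1000 TPM of Scgb1a1 in Ctrl and 2.13, 1.37 and 1.13 in DPP3_KO, where replicate 1 overlaps Ctrl (log2 difference -0.51, exact permutation p = 0.2). Sult1d1 was the member whose mean ratio was higher in DPP3_KO (log2 difference 0.85, exact permutation p = 0.3), with overlapping groups.

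The members did not keep fixed ratios to each other. The ratio to Cyp2f2, a comparison chosen after the values were seen, was higher in every DPP3_KO library than in any Ctrl library for Cyp2a5 and Sult1d1, which 0.339% of tested genes showed. Cyp2a5 came to 12.02%, 11.4% and 10.5% of the Cyp2f2 level in Ctrl and to 18.8%, 14.5% and 19.9% in DPP3_KO (log2 difference 0.63, exact permutation p = 0.1). For Cyp4b1, Cyp2b10 and Fmo2 the ratio was lower in every DPP3_KO library, as for 65.4% of tested genes. Cyp4b1 came to 33.4%, 30.2% and 41.3% of Cyp2f2 in Ctrl and 15.2%, 16.5% and 20.2% in DPP3_KO (log2 difference -1.01). Aldh1a1 had the smallest mean difference, with DPP3_KO libraries on both sides of Ctrl, at 63.0%, 54.3% and 54.5% in Ctrl and 70.8%, 45.9% and 60.7% in DPP3_KO (log2 difference 0.03, exact permutation p = 1). Cyp2s1, Por and Cbr2 also overlapped, at log2 differences of -0.16, -0.48 and -0.32.

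**Figure D4:**
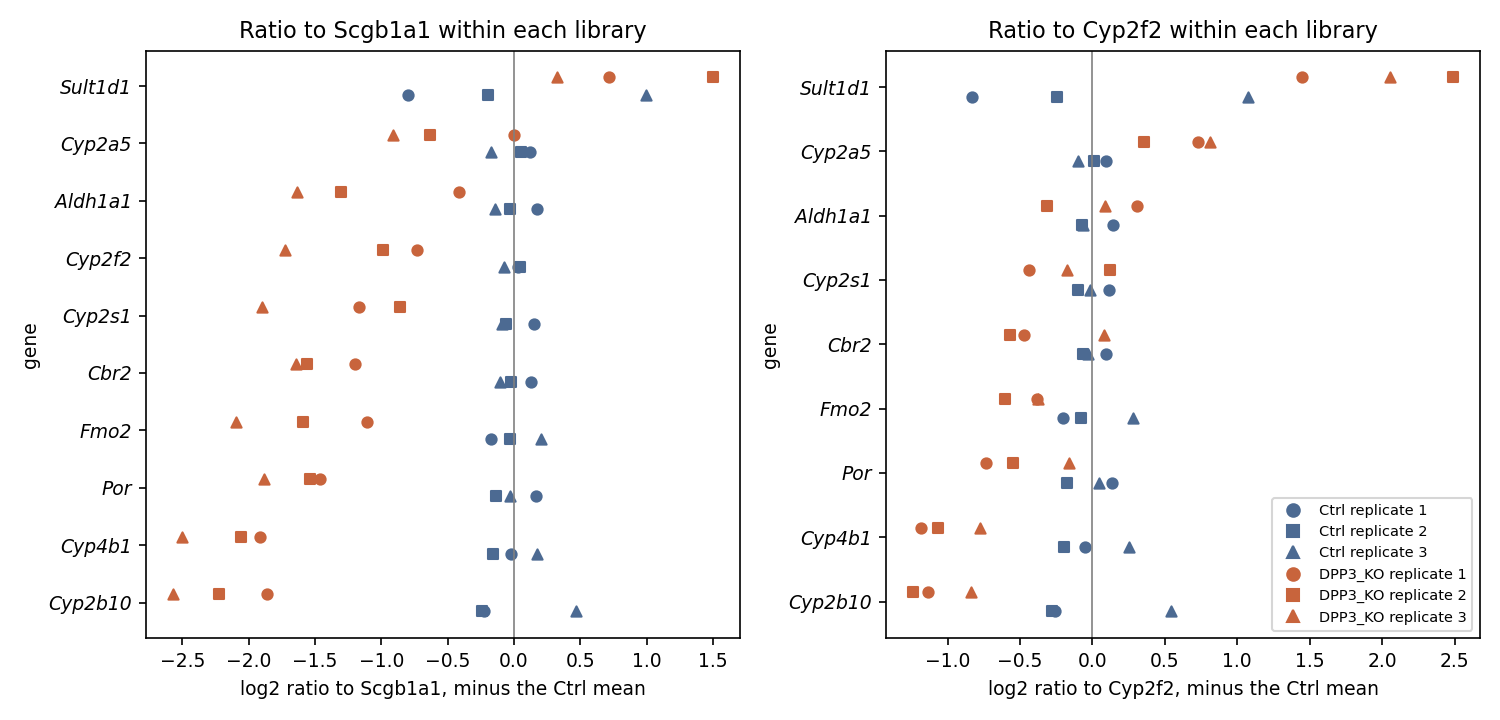
log2 ratio of each gene to Scgb1a1 (left) and to Cyp2f2 (right) within each library, minus the Ctrl mean of that ratio; each point is a library. Against Scgb1a1 most DPP3_KO points lie left of 0 with Sult1d1 to the right, and against Cyp2f2 the genes spread from Cyp2b10 (-1.07) to Sult1d1 (2.00).

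Cyp2s1, Cyp2b10, Cyp2a5 and Cyp2f2 lie in that order on chromosome 7, in the Cyp2 gene cluster, with 17 protein-coding genes from the first to the last in RefSeq. Of the 12 Cyp2 genes among these only those 4 passed the filter on low values, and the other 8 reached at most 1.41 TPM in a library. Cyp2b10 exceeded Cyp2a5 in every Ctrl library and Cyp2a5 exceeded Cyp2b10 in every DPP3_KO library. Their ratio, also picked after the values were seen, was 0.764, 0.734 and 0.383 in Ctrl and 2.19, 1.82 and 1.90 in DPP3_KO, a log2 difference of 1.71 (exact permutation p = 0.1). The promoters of this pair are the ones printed above that share the TTGCATAA letters.

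The genes with profiles most like that of Cyp2f2, by the root mean square difference of log2(TPM + 1) after centring over the 6 libraries, were Igf2 (0.086), Btc (0.098), Ces1e (0.132), Lgr6 (0.134) and Aldh1a7 (0.138). Igf2, Btc, Ces1e and Lgr6 had means under 10 TPM in both groups, and Aldh1a7, a close relative of Aldh1a1, had 65.8 TPM in Ctrl and 113 TPM in DPP3_KO (log2 change 0.72, limma adjusted p = 0.126). Among the members Cyp2s1 (0.193) and Aldh1a1 (0.197) were nearest to Cyp2f2 and Sult1d1 (1.18) was farthest.

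Of 11 club cell markers outside the enzymes, 5 were called higher and 6 not called as deposited, where 1.38% of all tested genes were called higher, with a median log2 change of 1.65 where the enzymes had 0.27, and 2 were called higher after rescaling, where Scgb1a1 did not pass (limma adjusted p = 0.0540). Their summed level was 75510 to 105228 TPM in Ctrl and 230731 to 295743 TPM in DPP3_KO, nearly all of it Scgb1a1, and none was at 0 in all libraries. Of 8 alveolar type 2 genes, cells that also make some of these enzymes, 5 were called lower, and their median was -1.06 (-0.41 after rescaling, where 0 were called), with sums of 26130 to 48610 TPM in Ctrl and 18668 to 29502 TPM in DPP3_KO. Of 10 ciliated cell genes 5 were called higher (median 0.82), with overlapping sums of 944 to 1448 TPM in Ctrl and 1080 to 1361 TPM in DPP3_KO. Heart muscle genes were called higher in 4 of 6 cases (median 1.49), and their sums of 457 to 923 TPM in Ctrl and 1702 to 1865 TPM in DPP3_KO did not overlap. Alveolar type 1 genes were called lower in 6 of 7 cases (median -1.92), capillary endothelial genes in 6 of 7 (-1.80) and alveolar macrophage genes in 5 of 7 (-3.05), each with sums that did not overlap. As deposited, 34.0% of all tested genes were called lower, and 51.1% had non-overlapping groups with DPP3_KO lower. After rescaling 6 ciliated and 4 heart muscle genes were called higher, and 2 alveolar type 1, 3 capillary and 5 macrophage genes lower. Over all tested genes 1.9% were then called higher and 0.882% lower. No call was made among 5 fibroblast genes (-0.78) or for the 1 airway basal gene tested (0.71), whose list summed to 0.70 to 1.55 TPM in Ctrl and 1.78 to 4.38 TPM in DPP3_KO. No gene of these lists was at 0 in all libraries. The part of any of these cell types in the enzyme values was not tested.

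Most of the other genes of xenobiotic metabolism did not pass. Across 11 lists chosen by symbol, 208 genes were in the table and 85 were tested, of which 2 were called higher, 19 lower and 64 were not called, with a median log2 change of -0.30, against -0.60 over all genes. Over all tested genes 1.38% were called higher and 34.0% lower. After rescaling 4 were called higher and 0 lower, where 1.9% and 0.882% of all tested genes were, and the median was 0.30. None of the 16 glucuronosyltransferase genes reached the filter.

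Among the other flavin monooxygenase genes, Fmo1 fell as deposited. Fmo1 went from 340 ± 15.2 to 193 ± 41.6 TPM (SD, n = 3), a log2 change of -0.84 (limma adjusted p = 0.0237), and its log2 change was -0.19 after rescaling, where it did not pass. Fmo5 (-0.65, limma adjusted p = 0.0521) did not pass on either scale.

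Among the 15 other aldehyde dehydrogenase genes 1 rose, 3 fell and 11 did not pass as deposited. Over all tested genes 1.38% were called higher and 34.0% lower on that scale. Aldh3a1, which clears aldehydes from lipid oxidation, rose from 8.87 ± 1.44 to 25.3 ± 7.53 TPM (SD, n = 3), by 1.38 on the log2 scale (limma adjusted p = 0.0169, and 1.99 after rescaling, limma adjusted p = 0.0129). Its libraries stood at 7.86, 10.5 and 8.24 TPM in Ctrl and 31.6, 27.4 and 16.9 TPM in DPP3_KO, without overlap. Aldh3a2, the fatty aldehyde dehydrogenase, and Aldh9a1 were lower as deposited (-0.741 and -0.999) and were not called after rescaling (-0.09 and -0.37). The third that fell as deposited, named after its values were seen, was Aldh18a1 (-0.66, limma adjusted p = 0.0485, and -0.14 after rescaling, where it did not pass).

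Of the 13 other P450 genes of families 1 to 4 that were tested, Cyp4v3 was the 1 called, lower by -0.75 as deposited (limma adjusted p = 0.0224) and at -0.12 after rescaling. Cyp4f16 (-1.15, limma adjusted p = 0.0531) and Cyp4f15 (0.97, limma adjusted p = 0.0687) did not pass. After rescaling Cyp4f16 stood at -0.55 and Cyp4f15 at 1.57 (limma adjusted p = 0.0503, groups without overlap), and Cyp4f15 passed after quantile normalization (1.63, limma adjusted p = 0.0480). The sulfotransferase genes Sult5a1 and Sult2b1 fell as deposited (-1.35 and -1.21, limma adjusted p = 0.0186 and 0.0285), opposite in sign to Sult1d1, and stood at -0.79 and -0.71 after rescaling without passing. Sult1a1, the third of the tested sulfotransferases outside the members, was at -0.11 and did not pass. As deposited, 34.0% of all tested genes were called lower.

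The calls of the next lists stand beside 34.0% of all tested genes called lower as deposited. Of the 16 other carbonyl and aldo-keto reductase genes 2 fell as deposited, Akr1b3, the aldose reductase (-1.07, limma adjusted p = 0.0216), and Akr1b10 (-0.66, limma adjusted p = 0.0479), and Cbr4 did not pass (-0.56). After rescaling neither passed and Cbr3, named after its values were seen, was called higher (0.89, limma adjusted p = 0.0472). Among 6 carboxylesterase genes Ces2g (-1.21) and Ces2c (-1.62, from 0.95 to 4.05 TPM in Ctrl to 0 to 0.05 TPM in DPP3_KO) fell as deposited. After rescaling they stood at -0.64 and -1.40 (limma adjusted p = 0.162 and 0.0925), still without overlap but not called. Ces1e did not pass (0.50, and 1.06 after rescaling). The epoxide hydrolase genes Ephx2, Ephx4 and Ephx1 did not pass as deposited (0.59, 0.67 and -0.04) or after rescaling (1.09, 1.13 and 0.62), where Ephx2 had a limma adjusted p of 0.0503, and Ephx2 passed after quantile normalization (1.13, limma adjusted p = 0.0491).

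The electron carriers beside Por split by gene. Cyb5r3 and Cyb5b, a cytochrome b5 reductase and an outer mitochondrial membrane cytochrome b5, fell as deposited (-1.01 and -0.87, limma adjusted p = 0.0271 and 0.0332) and stood at -0.35 and -0.23 after rescaling, where they did not pass, and Cyb5r1 did not pass (-0.69). Cyb5a, the microsomal cytochrome b5 that can donate an electron to P450 enzymes, was singled out after its values were seen. It held 399 ± 30.6 TPM in Ctrl and 576 ± 91.0 in DPP3_KO without overlap (0.52, limma adjusted p = 0.0593) and was called after rescaling (1.18, limma adjusted p = 0.0404).

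Of 5 tested genes for receptors that sense foreign chemicals and their partners, 3 were called lower as deposited, where 34.0% of all tested genes were, and their median of -0.63 lay near that of all genes (-0.60). Ahr, the aryl hydrocarbon receptor, its partner Arnt and the retinoid receptor gene Rxrb fell (-1.37, -1.24 and -0.63, limma adjusted p = 0.0220, 0.0170 and 0.0346), and Rxra and Ppara did not pass (-0.38 and -0.50). After rescaling 0 of 5 were called, and the 3 stood at -0.78, -0.61 and 0.0043. Nr1i2 and Nr1i3, the receptors PXR and CAR, stayed under the filter, with means of at most 0.623 TPM. Of 12 haem synthesis and breakdown genes 3 fell as deposited, Ppox (-0.94), Blvra (-0.72) and Hmox2 (-0.56), no larger a share than the 34.0% of all tested genes. None was called after rescaling, where they stood at -0.31, -0.08 and 0.09.

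**Figure D5:**
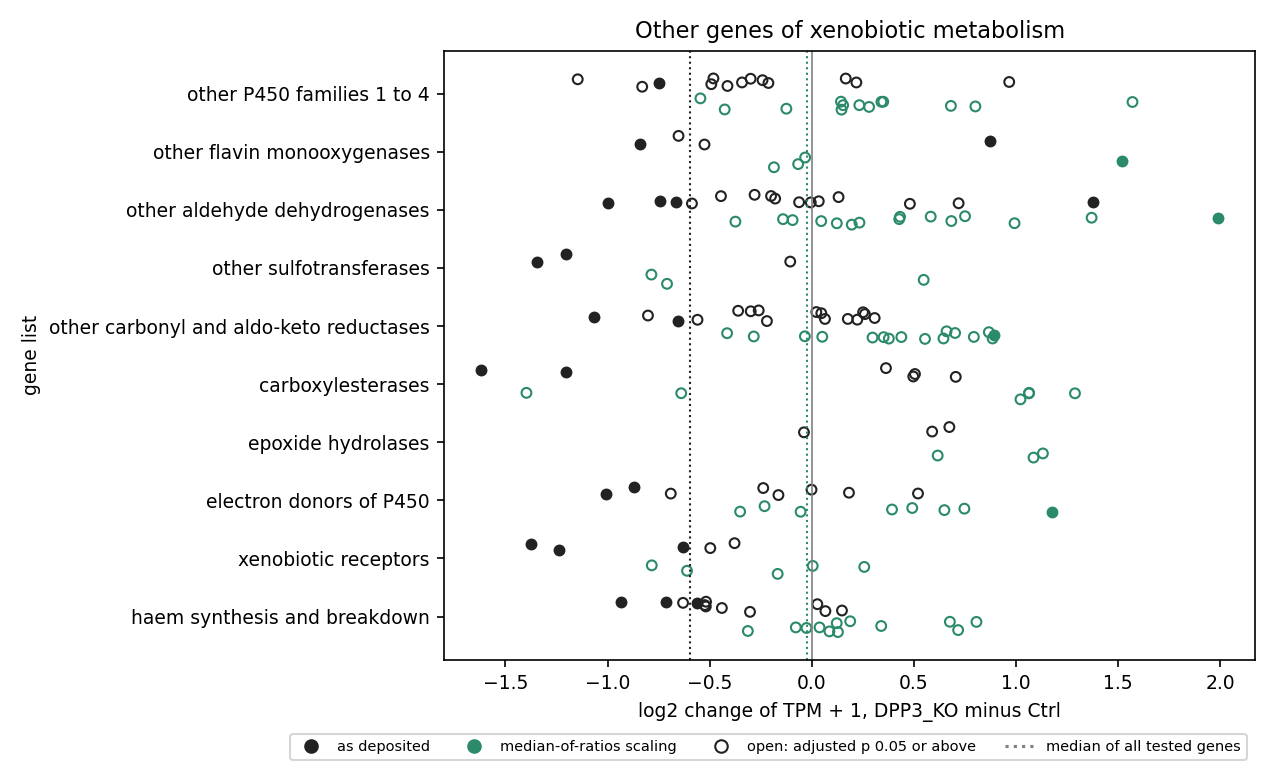
log2 change (DPP3_KO minus Ctrl) of each tested gene in 10 lists, as deposited (black) and after rescaling (green); filled points have a limma adjusted p under 0.05, and dotted lines are the median of all tested genes. Most calls as deposited lie left of 0, and the calls after rescaling, Aldh3a1, Cbr3 and Cyb5a among them, lie right of it.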

How the data were processed

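The authors deposited 1 table of TPM for 6 libraries, 3 per group, made from total RNA of whole lung. The submitters' processing notes name HISAT2, StringTie, RSEM and the build GRCm39, without versions or roles, and TPM keeps no depth. The TPM columns were matched to samples by their names. 1 Ctrl title reads 232 in place of 231 and was taken as a slip, since the column reads 231.

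Genes whose mean reached 1 TPM were tested on log2(TPM + 1) with limma 3.58.1 in R 4.3.3 (trended empirical Bayes, Benjamini-Hochberg adjustment, threshold 0.05), a procedure that was tested on simulated data. A fold on this scale understates the change of low genes. Ratios within libraries used two-sided exact permutation tests. Rescaling used median-of-ratios size factors over all genes of the table with a value above 0 in each of the 6 libraries.

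The members and all gene lists were chosen with earlier results of these data known. Named genes are the members, the 3 genes of smallest p in each pathway list, the 5 genes most like Cyp2f2, and Scgb1a1. The result for 1 gene that this rule names is not reported here. Promoters came from RefSeq (GRCm38.p6), an earlier build than that of the table. Alternatives covered the pseudocount, filter, scaling, limma settings, the replicate number as a block, and leaving out each library.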

Additional observations from a re-analysis of the deposited data

How the results depend on the processing

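Against 5537 genes called as deposited, 3249 were called with no filter, 435 after median-of-ratios scaling, 468 after quantile normalization, 562 with TPM rescaled without Scgb1a1 and 277 with the length trend also removed. The 2 members called higher became 1 with no filter, after quantile normalization, without Scgb1a1 and with the length trend removed. The median of the members was 0.92 after median-of-ratios scaling and 0.85 with the length trend removed, against 0.27. Leaving out 1 library at a time gave 19 to 5134 calls as deposited (19 without Ctrl replicate 1, 75 without Ctrl replicate 2, 3309 without DPP3_KO replicate 1 and 1719 without DPP3_KO replicate 3) and 23 to 336 from median-of-ratios values. It gave 0 to 2 members called higher, 0 to 2 called lower, and a median of 0.043 to 1.05 over both scales, with 0 called higher as deposited without Ctrl replicate 1 or Ctrl replicate 2. From median-of-ratios values, Sult1d1 then passed in 2 of 6 fits and Cyp2a5 in 0 of 6. The difference in summed TPM, 2125 as deposited, ran from -106 to 3339 in the leave-one-out fits and was 7216 from median-of-ratios values and 5516 without Scgb1a1.

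The sign of Cyp2b10 and Cyp4b1 turned after median-of-ratios scaling (0.093 and 0.16), Cyp4b1 also with the length trend removed (0.037), and Por with sample quality weights (-0.013). Over the leave-one-out fits on both scales Cyp2b10 ran from -0.82 to 0.31, Cyp4b1 from -0.70 to 0.32, Por from -0.13 to 0.86, Fmo2 from -0.27 to 0.93 and Cbr2 from -0.023 to 1.11. Against Cyp2f2 in place of Scgb1a1, a reference chosen after seeing the data, the log2 ratio differences of Cyp2a5 (0.63) and Aldh1a1 (0.028) turned to above 0. That of Sult1d1 was above 0 against Scgb1a1 (0.85) and against Cyp2f2 (2.00). The cause of these changes was not tested.

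In the pathway lists, calls after median-of-ratios scaling came to 0 for P450, sulfotransferase, carboxylesterase, receptor and haem genes and to 1 each for flavin monooxygenases, aldehyde dehydrogenases, reductases and electron donors. After quantile normalization they came to 1 for P450 genes, flavin monooxygenases, aldehyde dehydrogenases, reductases and epoxide hydrolases, and to 0 for sulfotransferases, carboxylesterases, electron donors, receptors and haem genes. All of these calls were higher, among 85 tested genes of the lists. Over all tested genes 1.9% were called higher and 0.882% lower after median-of-ratios scaling. After quantile normalization the shares were 2.09% and 0.901%.

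The labels do not say whether the replicate numbers pair the libraries. The deviations of same-numbered libraries correlated at 0.271, -0.206 and 0.147, and those of differently numbered libraries at -0.483 to 0.408. With 3 libraries per group these values cannot decide whether there is a pairing. With a replicate block 4946 genes were called as deposited. From median-of-ratios values it left 51 genes and 0 members called, with a median of 0.92 and estimates of 0.093 for Cyp2b10 and 0.16 for Cyp4b1. TPM keeps no depth, so counting error cannot be given.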
